A study of Homo sapiens with 6 samples.

Results

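Glycolysis and the transcripts induced by low oxygen were followed in QBC-939 cells, a human cholangiocarcinoma (bile duct cancer) line, through 43 genes chosen by name. All 43 had a single row each in a table of 27238 gene rows. By role, 24 are glycolytic (from glucose uptake to lactate export, with the PFKFB enzymes that set the pace of glycolysis), 13 are other targets of hypoxia-inducible factor (HIF), and 6 belong to the machinery that makes or removes HIF. Poly(A) RNA had been sequenced from 3 libraries of cells given Bmi1 shRNA and 3 control libraries of cells given scrambled shRNA, both taken after 48 h; the series' design gives 3 independent transfections for each and calls the scrambled RNA an siRNA, where the treatment label calls it an shRNA. All cells were of this 1 line, in DMEM with fetal bovine serum; the oxygen level, the shRNA sequence and the state of the parental line are not given in the sources used here. The comparison asked how the mRNA profile differs when BMI1, a subunit of Polycomb repressive complex 1, is lowered.

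Glycolysis splits glucose into pyruvate in the cytosol, and lactate dehydrogenase then turns pyruvate into lactate, which leaves the cell through monocarboxylate transporters. HIF is a pair of proteins, an oxygen-labile alpha subunit (HIF1A, or EPAS1, also called HIF-2 alpha) and the stable ARNT. With oxygen present, prolyl hydroxylases of the EGLN family mark the alpha subunit for the VHL ubiquitin ligase, so that control of HIF is largely on the protein and is not seen in mRNA. With little oxygen, HIF switches on glucose transporters, most glycolytic enzymes and genes of acid balance, blood vessel growth, mitophagy and collagen modification.

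The values were FPKM (fragments per kilobase of transcript, scaled to the mapped fragments of the library). BMI1 itself had 1.49, 1.19 and 2.65 FPKM in the Bmi1 shRNA libraries, against 6.65, 5.34 and 6.09 FPKM in the control libraries, so its groups did not overlap. Of 9 biliary markers with a row, all 9 averaged at least 1 FPKM, with a summed level of 447 to 502 FPKM in Bmi1 shRNA libraries and 527 to 545 FPKM in control libraries, and all 6 general epithelial markers did (1160 to 1339 FPKM against 1419 to 1564 FPKM). The epithelial sum includes CLDN4, which was uneven between control libraries (115, 0.687 and 86.4 FPKM). CLDN4, KRT8, ESRP1 and GRHL2 overlapped between groups, and KRT18 and CDH1 were lower with Bmi1 shRNA without overlap. Intestinal markers reached 1 FPKM in 2 of 9 cases, VIL1 and TFF3, and summed to 81.4 to 91.0 FPKM with Bmi1 shRNA, against 30.5 to 33.2 FPKM in control. Hepatocyte markers did so in 2 of 4 cases, SERPINA1 and TTR (228 to 240 FPKM against 156 to 166 FPKM). The defining intestinal genes CDX2, CDH17 and MUC2 were at or near 0 in every library, but others of the list stood higher with Bmi1 shRNA without overlap: TFF3 (64.7 ± 6.37 FPKM against 9.95 ± 0.382 FPKM), LGR5 (1.001 ± 0.186 FPKM against 0.284 ± 0.0640 FPKM) and FABP1 (0.531 ± 0.128 FPKM against 0.258 ± 0.0611 FPKM; SD, n = 3 each). VIL1 was lower, at 17.9 ± 1.40 FPKM against 21.1 ± 1.04 FPKM (SD, n = 3 each). Fibroblast and endothelial markers never averaged 1 FPKM, and adipocyte markers did so in 1 of 2 cases (1.23 to 1.37 FPKM against 1.57 to 1.98 FPKM). Of 4 leukocyte markers, LYZ and CD68 passed and the sum was 1518 to 1579 FPKM against 1428 to 1530 FPKM, nearly all of it LYZ, which glandular epithelia also make; without LYZ it was 7.73 to 9.27 FPKM against 11.8 to 13.0 FPKM. The part of these marker differences in the results was not tested. In bulk RNA, fewer cells of a type and less RNA per cell cannot be told apart.

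Members of the module that passed the test were mostly lower with Bmi1 shRNA. A row was tested if it averaged at least 1 FPKM over the 6 libraries, which held for 39 of the 43 genes, and passed if its p from limma on log2(FPKM + 1), adjusted by Benjamini-Hochberg over the 11016 tested rows, was under 0.05. These p-values measure only the spread between these 6 libraries. Of the 39, 18 fell, 6 rose and 15 did not pass. That is 46.2% lower and 15.4% higher, where the background over all tested rows was 28.5% lower and 28.6% higher. The members were chosen with earlier results of these data known, so their shares are not independent of that choice. Called genes in either direction made up 61.5% of the tested members and 57.1% of all tested rows, so the members were not called much more often than other genes. The groups did not overlap for 21 members lower and 7 higher, 71.8% of those tested, against 65.4% over all tested rows (33.1% lower, 32.3% higher). The median log2 fold change was -0.21 over the members and -0.02 over all tested rows.

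By role, the glycolytic genes are the largest set. Of 23 tested glycolytic genes, 11 fell, 2 rose and 10 did not pass, with a median log2 fold change of -0.21. Of 10 tested other HIF targets, 5 fell, 3 rose and 2 did not pass, with a median of -0.21. Of the 6 HIF regulators, 2 fell, 1 rose and 3 did not pass, with a median of -0.18. Called genes made up 56.5% of the glycolytic genes, 80% of the other targets and 50% of the regulators, against 57.1% of all tested rows. In the same order, 47.8%, 50% and 33.3% were lower, against 28.5% of all tested rows. Higher calls were 8.7% of the glycolytic genes and 16.7% of the regulators. Among the other targets they were near the 28.6% of all tested rows. A subset of 15 called genes kept its call in every alternative setting in which it was tested: SLC2A1, HK2, PFKL, PFKM, PFKP, PFKFB3, PGAM1, ENO1, BHLHE40 and EPAS1, all lower, and LDHB, SLC16A1, P4HA1, ANKRD37 and HIF1A, all higher.

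**Figure D1:**
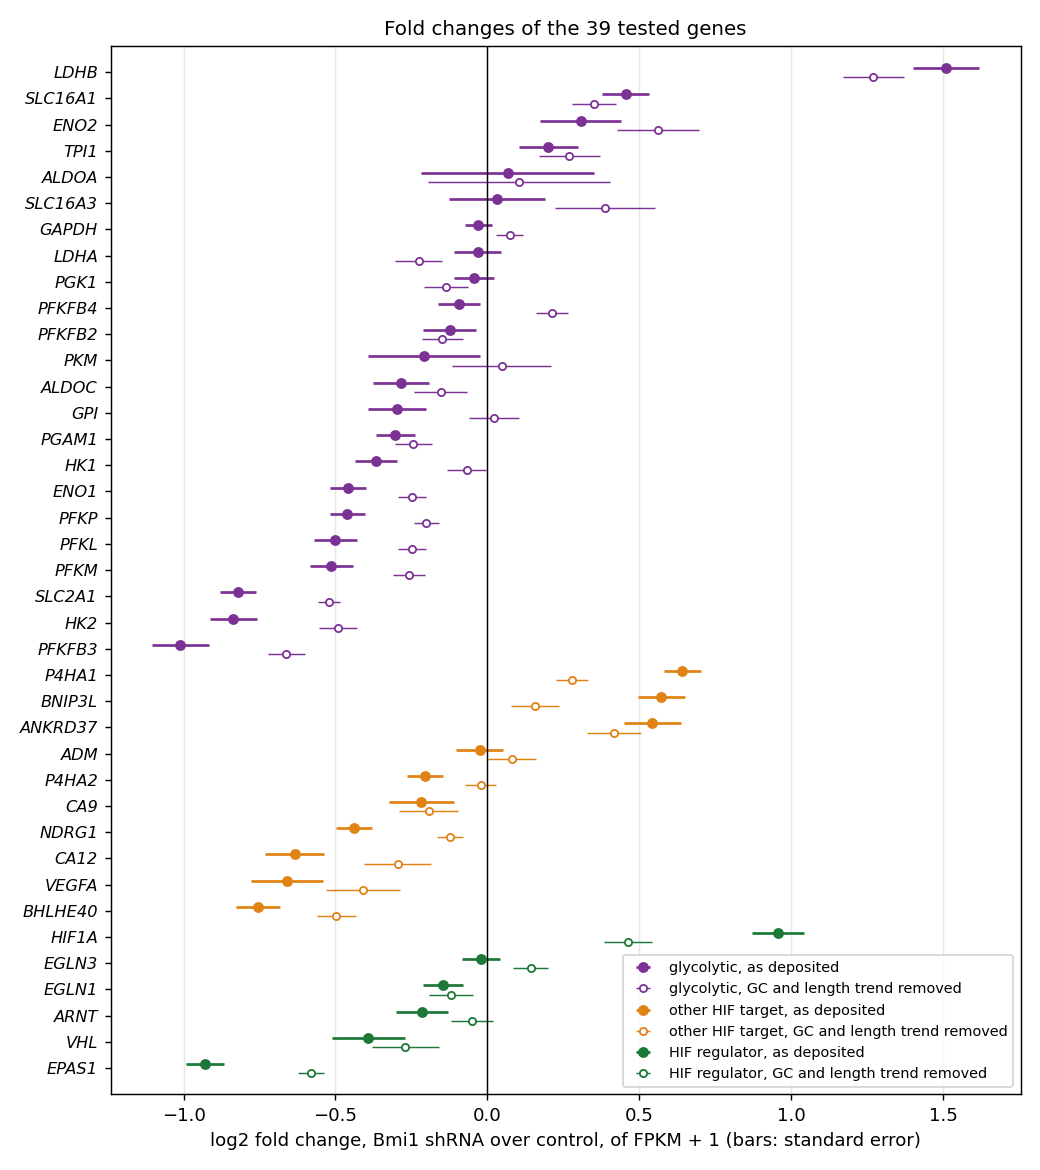
The log2 fold change (Bmi1 shRNA over control, of FPKM + 1; horizontal axis) with its standard error is drawn for each of the 39 tested genes, grouped by role, from the deposited values (filled) and after a trend with transcript GC content and length was taken out (open). LDHB stands farthest to the right at 1.51 and PFKFB3 farthest to the left at -1.01.

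The promoters of 6 of these 15 genes are shown because the genes are HIF-linked or glycolytic and yet moved in opposite directions: SLC2A1, ENO1 and BHLHE40 fell, and LDHB, P4HA1 and ANKRD37 rose. Each stretch is the 250 bases before the transcription start in RefSeq (GRCh38.p14), 5′ to 3′ on the gene's strand, with the core of the HIF binding site, ACGTG or GCGTG on either strand, in capitals (CACGT and CACGC on the printed strand when the site lies on the other). Overlapping matches, such as the palindrome CACGTG, count as 1 site. The SLC2A1 stretch is chr1:42958869-42959118 (reverse strand), that of ENO1 chr1:8878687-8878936 (reverse strand), that of BHLHE40 chr3:4979187-4979436 (forward strand), that of LDHB chr12:21657843-21658092 (reverse strand), that of P4HA1 chr10:73096867-73097116 (reverse strand) and that of ANKRD37 chr4:185396591-185396840 (forward strand).
SLC2A1: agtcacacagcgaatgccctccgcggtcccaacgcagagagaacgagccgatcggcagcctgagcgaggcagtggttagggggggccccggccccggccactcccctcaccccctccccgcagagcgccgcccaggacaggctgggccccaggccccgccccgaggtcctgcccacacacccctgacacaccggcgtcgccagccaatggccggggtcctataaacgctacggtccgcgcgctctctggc
ENO1: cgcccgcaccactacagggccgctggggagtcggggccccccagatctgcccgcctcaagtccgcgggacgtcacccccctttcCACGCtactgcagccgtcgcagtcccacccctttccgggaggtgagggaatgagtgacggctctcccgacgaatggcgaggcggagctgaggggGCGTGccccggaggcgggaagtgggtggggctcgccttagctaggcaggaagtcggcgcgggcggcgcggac
BHLHE40: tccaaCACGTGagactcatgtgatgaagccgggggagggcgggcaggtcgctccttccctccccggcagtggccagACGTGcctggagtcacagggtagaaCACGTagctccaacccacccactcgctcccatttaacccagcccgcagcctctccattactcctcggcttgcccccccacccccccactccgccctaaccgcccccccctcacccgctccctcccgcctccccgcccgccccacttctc
LDHB: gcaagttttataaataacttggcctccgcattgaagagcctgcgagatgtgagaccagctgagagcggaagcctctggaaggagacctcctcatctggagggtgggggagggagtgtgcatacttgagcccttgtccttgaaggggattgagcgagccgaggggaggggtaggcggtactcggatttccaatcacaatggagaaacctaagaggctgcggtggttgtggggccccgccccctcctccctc
P4HA1: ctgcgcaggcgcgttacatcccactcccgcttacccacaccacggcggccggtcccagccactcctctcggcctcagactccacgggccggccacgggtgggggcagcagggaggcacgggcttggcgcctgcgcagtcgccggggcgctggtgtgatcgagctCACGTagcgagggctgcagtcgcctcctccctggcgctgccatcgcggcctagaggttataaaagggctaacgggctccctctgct
ANKRD37: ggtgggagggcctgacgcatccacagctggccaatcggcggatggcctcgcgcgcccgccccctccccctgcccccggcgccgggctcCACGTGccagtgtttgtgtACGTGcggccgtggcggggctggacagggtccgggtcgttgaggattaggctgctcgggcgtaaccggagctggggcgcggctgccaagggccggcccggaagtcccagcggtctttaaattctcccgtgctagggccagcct

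The core motif was found in members of both directions. BHLHE40 had 3 sites, ENO1 and ANKRD37 had 2 each, P4HA1 had 1, and none stood in these windows of SLC2A1 and LDHB. RefSeq windows were on hand for 36 of the 43 genes, of which 25 had a single annotated start. Among the single-start genes the motif stood in 7 of 10 that fell, 2 of 3 that rose, 7 of 10 that did not pass and 2 of 2 below the filter. In all, 72.0% of the 25 held it, where 42.2% of all 22114 genes with 1 such window did. The members were chosen by name for glycolysis or HIF, so this share is not independent of that choice. The motif has 5 bases and a match is a description of the letters, not a binding site.

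The mRNAs of the main glucose transporter and of the hexokinases were lower, while that of another transporter outside the module, SLC2A2 (GLUT2), was higher at 7.66 ± 0.284 FPKM against 2.73 ± 0.281 FPKM (SD, n = 3 each; log2 fold change 1.22; limma, adjusted p = 0.000243). SLC2A1, the glucose transporter GLUT1, had 192, 185 and 210 FPKM in Bmi1 shRNA libraries, against 337, 355 and 348 FPKM in control libraries. Every Bmi1 shRNA library lay far below every control library, at 56.5% of the control mean (log2 fold change -0.82, standard error 0.060; limma, adjusted p = 0.000282). After detrending, the removal of a trend of fold changes with GC content and transcript length, its change was -0.52. SLC2A3, the transporter GLUT3 of neurons, was barely present, at 0.0302 to 0.0610 FPKM against 0.0914 to 0.143 FPKM, and was below the filter. HK2, the hexokinase that HIF induces in tumours, had 3.68, 3.72 and 4.03 FPKM with Bmi1 shRNA, against 6.81, 7.96 and 8.04 FPKM in control. The groups were wide apart, with the mean at 50.1% of control (log2 fold change -0.84, standard error 0.078; limma, adjusted p = 0.000481). After detrending the change of HK2 was -0.49, still called (limma, adjusted p = 0.00221).

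The housekeeping hexokinase HK1 fell, to 12.3 ± 0.922 FPKM in Bmi1 shRNA libraries, against 16.2 ± 0.622 FPKM in control libraries (SD, n = 3 each; log2 fold change -0.37; limma, adjusted p = 0.00501). That call ended after detrending (log2 fold change -0.068; limma, adjusted p = 0.440). HK1 fell less than HK2 (to 76.2% of control, against 50.1%), so its share of the summed FPKM of HK1 and HK2 was higher. That share was 75.5%, 77.1% and 76.6% with Bmi1 shRNA, against 70.8%, 67.6% and 65.8% in control. A further hexokinase outside the module, HKDC1, was more abundant than both, with 21.9 ± 0.550 FPKM against 44.6 ± 0.636 FPKM (SD, n = 3 each), and it fell as well (log2 fold change -0.99; limma, adjusted p = 0.000179). The 3 hexokinases together came to 36.4, 38.1 and 39.6 FPKM with Bmi1 shRNA, against 67.2, 69.2 and 68.7 FPKM in control, a ratio of 0.556. GPI, the isomerase of the second step, had 20.3, 23.2 and 26.0 FPKM, against 27.4, 30.5 and 27.8 FPKM. Its groups came close to touching (log2 fold change -0.30; limma, adjusted p = 0.0375). The call of GPI ended when any 1 library other than Bmi1 shRNA replicate 3 was left out (limma, adjusted p from 0.0591 to 0.111), and after detrending its change turned to 0.021 (limma, adjusted p = 0.858).

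At the committed step all 3 phosphofructokinase genes fell, where 28.5% of all tested rows did. PFKP, the most abundant here, had 19.6, 19.0 and 21.0 FPKM in Bmi1 shRNA libraries, against 26.9, 27.9 and 28.3 FPKM in control libraries. PFKM, the muscle form, had 9.36, 8.93 and 10.2 FPKM, against 13.2, 14.8 and 13.9 FPKM. PFKL, the liver form, had 6.55, 6.47 and 7.46 FPKM, against 9.70, 10.5 and 10.0 FPKM. None of the 3 overlapped between groups, as held for 65.4% of all tested rows. Their log2 fold changes were -0.46, -0.51 and -0.50 (limma, adjusted p = 0.00120, 0.00162 and 0.00164). All were called after detrending, at -0.20, -0.26 and -0.25. Their shares of the summed FPKM differed by under 2 percentage points: PFKP held 54.9 ± 0.497% with Bmi1 shRNA and 53.5 ± 0.884% in control, without overlap. PFKM held 26.3 ± 0.250% and 27.0 ± 0.684%, also without overlap, and PFKL held 18.8 ± 0.399% and 19.4 ± 0.252%, with overlap (SD, n = 3 each).

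Among the PFKFB enzymes, which make and break the activator fructose 2,6-bisphosphate, 1 of 3 fell, where 28.5% of all tested rows did. PFKFB3, the form with the strongest kinase activity and a known HIF target, had 3.20, 2.99 and 3.74 FPKM in Bmi1 shRNA libraries, against 7.06, 8.48 and 7.48 FPKM in control libraries. It was at 43.1% of control (log2 fold change -1.01, standard error 0.094; limma, adjusted p = 0.000478), the largest fall in the module on this scale, and at -0.66 after detrending. PFKFB2 (1.77 ± 0.198 FPKM against 2.02 ± 0.220 FPKM; SD, n = 3 each) did not pass. PFKFB4 did not pass either, with 1.24 ± 0.0778 FPKM against 1.39 ± 0.122 FPKM (log2 fold change -0.093; limma, adjusted p = 0.283). After detrending PFKFB4 turned to 0.21 and was called higher (limma, adjusted p = 0.0218). PFKFB3 thus supplied 51.4%, 52.1% and 53.2% of the summed FPKM of the 3 genes with Bmi1 shRNA, against 69.4%, 69.3% and 68.8% in control.

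The middle of the pathway, from aldolase to phosphoglycerate kinase, held 1 call among 5 genes, where 57.1% of all tested rows were called. ALDOA, the main aldolase, had 185, 141 and 151 FPKM in Bmi1 shRNA libraries, against 217, 96.5 and 163 FPKM in control libraries. The control libraries alone spanned more than the Bmi1 shRNA libraries did, with a coefficient of variation of 38.1% in control, where the median over all tested rows was 7.3%. ALDOA did not pass (log2 fold change 0.067, standard error 0.29; limma, adjusted p = 0.855), and without control replicate 2, the low one, the change was -0.25 (limma, adjusted p = 0.259). ALDOC, the brain form, fell slightly, to 18.9 ± 1.801 FPKM against 23.2 ± 1.96 FPKM (SD, n = 3 each; log2 fold change -0.28; limma, adjusted p = 0.0363). That call ended without Bmi1 shRNA replicate 1 or 3 or control replicate 2 or 3 (limma, adjusted p from 0.0939 to 0.109) and after detrending (0.206). TPI1, which interconverts the triose phosphates, had 396, 453 and 399 FPKM, against 361, 405 and 322 FPKM. It did not pass (log2 fold change 0.20; limma, adjusted p = 0.119), but did without control replicate 2 (limma, adjusted p = 0.0428).

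GAPDH, the most abundant gene of the module, had 2141, 2044 and 2040 FPKM in Bmi1 shRNA libraries, against 2118, 2043 and 2195 FPKM in control libraries, and did not pass (log2 fold change -0.029, standard error 0.044; limma, adjusted p = 0.596). It was called lower with libraries scaled to one total (-0.12; limma, adjusted p = 0.0417) and with quantile normalization (-0.20; limma, adjusted p = 0.0299), and upper quartile scaling turned its sign (0.014). PGK1, the first enzyme of the pathway to yield ATP, had 171, 150 and 149 FPKM, against 164, 155 and 165 FPKM, with overlap (log2 fold change -0.044; limma, adjusted p = 0.604). It was called lower with quantile normalization alone (-0.22; limma, adjusted p = 0.0261). These abundant genes also have processed pseudogenes, 61 by name for GAPDH in GENCODE, so reads may be shared between copies.

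Further down, the mutase and the main enolase fell. PGAM1 had 143, 147 and 162 FPKM in Bmi1 shRNA libraries, against 178, 184 and 196 FPKM in control libraries, without overlap (log2 fold change -0.30; limma, adjusted p = 0.00798). ENO1, the ubiquitous enolase, had 247, 245 and 255 FPKM, against 324, 338 and 368 FPKM. Every Bmi1 shRNA library was lower, at 72.6% of control (log2 fold change -0.46, standard error 0.059; limma, adjusted p = 0.00121), and at -0.25 after detrending. ENO2, the neuronal enolase, was higher in each Bmi1 shRNA library (11.1, 10.6 and 11.2 FPKM against 8.99, 10.4 and 6.86 FPKM) but did not pass (log2 fold change 0.31; limma, adjusted p = 0.0904). It was called without control replicate 2 (limma, adjusted p = 0.0282), and after detrending (0.56; limma, adjusted p = 0.0188). PKM, pyruvate kinase, had 114, 131 and 186 FPKM, against 143, 179 and 168 FPKM. Bmi1 shRNA replicate 3 was above all control libraries and the others were below them, so PKM did not pass (log2 fold change -0.21; limma, adjusted p = 0.364), whereas without that replicate it was called (limma, adjusted p = 0.0305).

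**Figure D2:**
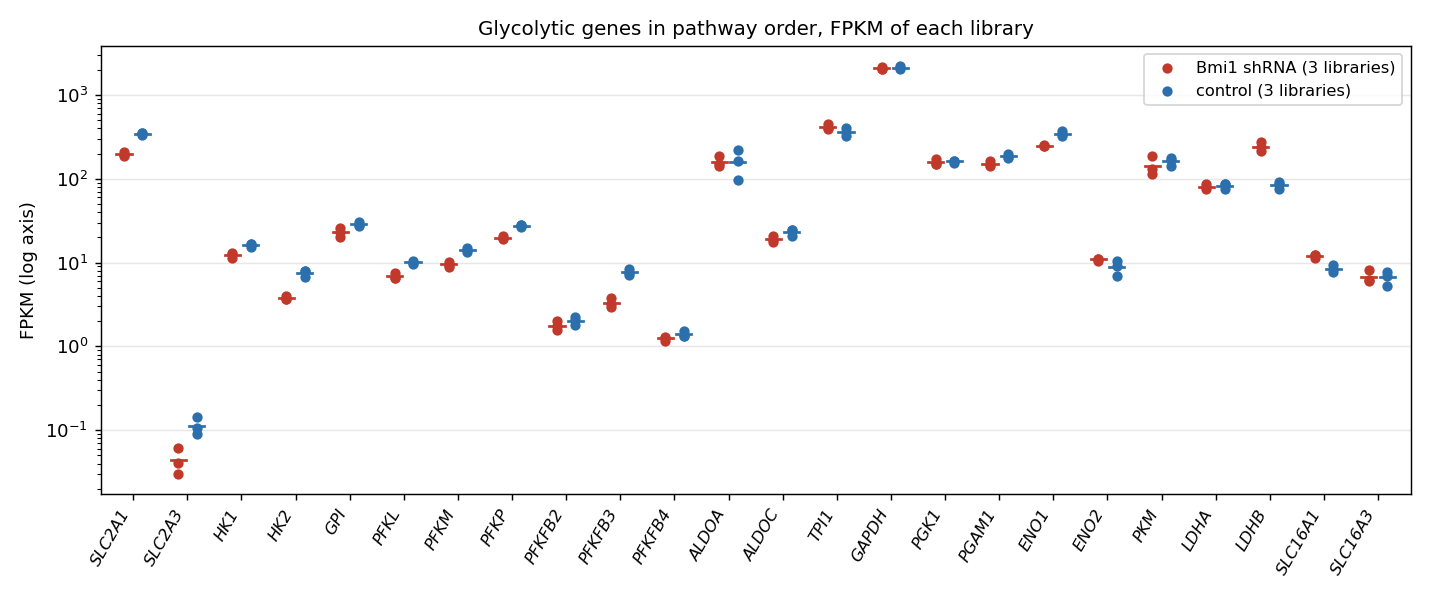
FPKM of each library (vertical log axis) is plotted for the 24 glycolytic genes in the order of the pathway, with Bmi1 shRNA libraries in red and control libraries in blue; short lines are group means. The groups part at SLC2A1, HK2, the PFK genes, PFKFB3, ENO1 and LDHB, and coincide at GAPDH, PGK1 and LDHA.

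The largest rise of the module was that of LDHB, while LDHA did not change detectably. Lactate dehydrogenase is a tetramer of LDHA subunits, which favour making lactate and are induced by HIF, and LDHB subunits, which favour its use. LDHB had 213, 273 and 239 FPKM in Bmi1 shRNA libraries, against 85.4, 75.5 and 90.8 FPKM in control libraries. All Bmi1 shRNA libraries were far above all control libraries, and the mean was 2.88-fold that of control (log2 fold change 1.51, standard error 0.11; limma, adjusted p = 0.000282). After detrending the change was 1.27. LDHA had 85.8, 80.6 and 75.6 FPKM, against 75.4, 86.2 and 86.1 FPKM. Its groups overlapped throughout (log2 fold change -0.032, standard error 0.077; limma, adjusted p = 0.738). After detrending the change of LDHA was -0.23, close to the threshold but not called (limma, adjusted p = 0.0595). The sum of both came to 322 ± 28.1 FPKM with Bmi1 shRNA and 166 ± 8.99 FPKM in control (SD, n = 3 each).

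Of the 2 lactate transporters of the module, SLC16A1 rose and SLC16A3 did not pass. SLC16A1 (MCT1), a transporter that also takes lactate up, had 12.2, 12.3 and 11.5 FPKM in Bmi1 shRNA libraries, against 8.32, 9.39 and 7.77 FPKM in control libraries. It rose 1.41-fold without overlap (log2 fold change 0.46; limma, adjusted p = 0.00328). SLC16A3 (MCT4), the HIF-induced exporter, had 6.002, 8.27 and 6.17 FPKM, against 5.28, 6.98 and 7.69 FPKM, and did not pass (limma, adjusted p = 0.873). Summed over all 24 glycolytic genes, of which GAPDH was by far the most abundant, the level was 4014, 3983 and 4002 FPKM with Bmi1 shRNA, against 4159, 4088 and 4263 FPKM in control.

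The share of a gene among its paralogs does not depend on how libraries are scaled, though it does on the GC trend, and was compared for 13 families (exact two-sided permutation, in which 3 against 3 libraries cannot go below p = 0.1). The share of the first-named paralog did not overlap between groups in 8 of the 13, each at an exact permutation p = 0.1, and after adjustment over the families no p was below 0.163. Such non-overlap is common in these data: 65.4% of all tested rows showed it for their levels. LDHA made up 28.7%, 22.8% and 24.05% of lactate dehydrogenase FPKM in Bmi1 shRNA libraries, against 46.9%, 53.3% and 48.7% in control libraries. HIF1A made up 60.2%, 61.8% and 62.9% of the FPKM of HIF1A and EPAS1 together, against 28.9%, 24.9% and 27.0%. LDHB thus led in every Bmi1 shRNA library, where both genes were near even in control, and HIF1A led EPAS1 in every Bmi1 shRNA library, where EPAS1 led in every control library. P4HA1 likewise made up 57.1 ± 0.926% of the FPKM of P4HA1 and P4HA2 with Bmi1 shRNA, and 39.3 ± 1.61% in control (SD, n = 3 each). Detrending narrowed both contrasts, to log2 fold changes of 0.28 for P4HA1 beside -0.022 for P4HA2, and 0.46 for HIF1A beside -0.58 for EPAS1. ENO1 made up 95.8 ± 0.0742% of enolase FPKM, against 97.5 ± 0.604%.

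**Figure D3:**
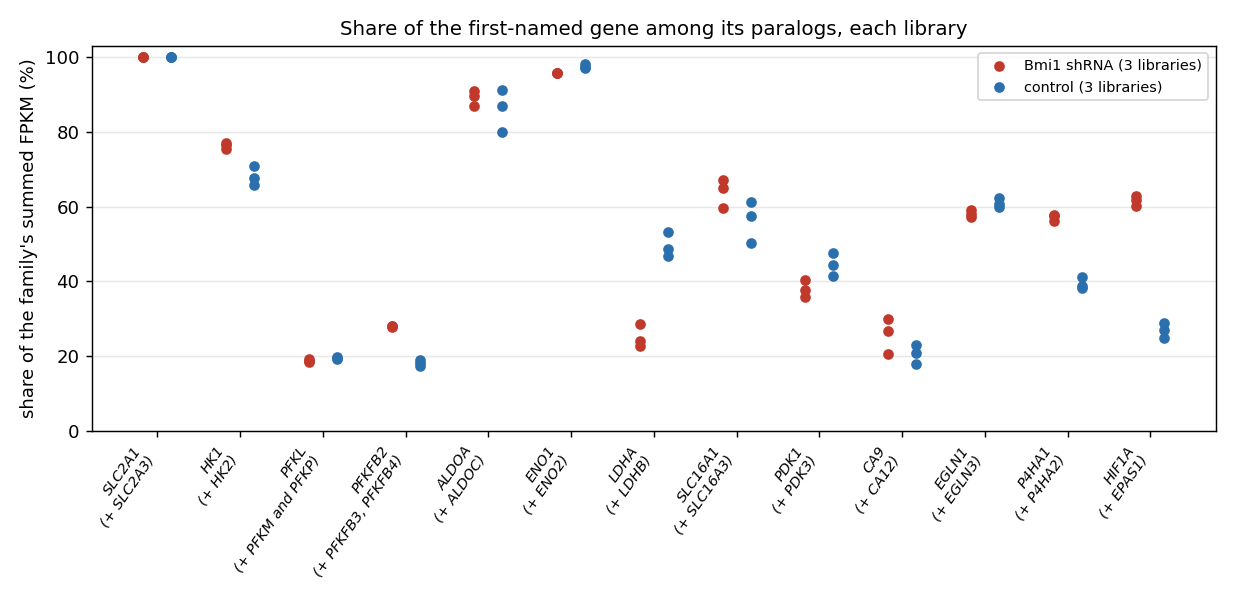
The share (%) of the first-named gene in the summed FPKM of its paralogs is plotted for each library in 13 families, Bmi1 shRNA in red and control in blue. The groups stand farthest apart for HIF1A (61.6% against 26.9% on average), LDHA (25.2% against 49.6%) and P4HA1 (57.1% against 39.3%).

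The genes for the HIF alpha subunits moved in opposite directions. HIF1A had 9.62, 9.97 and 11.7 FPKM in Bmi1 shRNA libraries, against 5.197, 4.61 and 4.81 FPKM in control libraries. All Bmi1 shRNA libraries were higher, 2.14-fold on average (log2 fold change 0.96, standard error 0.085; limma, adjusted p = 0.000432). Reads of HIF1A may include those of its antisense genes HIF1A-AS1 and HIF1A-AS2, which have rows of their own, since whether counting used strand is not known here, but those rows stood at most at 0.229 FPKM (HIF1A-AS1) and 0.0633 FPKM (HIF1A-AS2) in any library; 16 members have an antisense gene with a row. HIF1A has the lowest GC content of the module, 36.4%, and after detrending its change was 0.46, still called (limma, adjusted p = 0.00602). EPAS1 had 6.36, 6.18 and 6.88 FPKM, against 12.8, 13.9 and 13.0 FPKM. All Bmi1 shRNA libraries were lower, at 48.9% of control (log2 fold change -0.93, standard error 0.063; limma, adjusted p = 0.000267), and the change was -0.58 after detrending. The sum of both alpha subunits overlapped between groups, at 16.0, 16.2 and 18.5 FPKM against 18.0, 18.5 and 17.8 FPKM.

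Among their common partner and the enzymes that remove them, 1 of 4 genes passed, where 57.1% of all tested rows did. ARNT had 3.14 ± 0.298 FPKM in Bmi1 shRNA libraries and 3.81 ± 0.344 FPKM in control libraries (SD, n = 3 each). It did not pass (log2 fold change -0.22; limma, adjusted p = 0.0678), though it was called with libraries scaled to one total (0.0294) or quantile normalized (0.0328). VHL, the substrate receptor of the ligase, had 6.76, 4.88 and 6.65 FPKM, against 8.61, 8.56 and 7.57 FPKM. It fell without overlap (log2 fold change -0.39; limma, adjusted p = 0.0308), but the call ended without control replicate 1 or 2 (limma, adjusted p = 0.0828 and 0.0870) and after detrending (0.0987). EGLN1, the main hydroxylase of HIF alpha, had 2.39 ± 0.0906 FPKM against 2.75 ± 0.211 FPKM and did not pass (log2 fold change -0.15; limma, adjusted p = 0.103), except with libraries scaled to one total (0.0357). EGLN3, itself a HIF target, had 1.72 ± 0.0301 FPKM against 1.76 ± 0.127 FPKM, with overlap (limma, adjusted p = 0.807).

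Among the other HIF targets, 5 fell, of which BHLHE40, VEGFA, CA12 and NDRG1 come first here. BHLHE40, a transcriptional repressor, had 7.29, 8.14 and 8.69 FPKM in Bmi1 shRNA libraries, against 14.0, 14.8 and 14.0 FPKM in control libraries. It was at 56.5% of control without overlap (log2 fold change -0.76, standard error 0.073; limma, adjusted p = 0.000523), and at -0.50 after detrending. VEGFA, the main vascular growth factor, had 6.08, 5.66 and 6.02 FPKM, against 10.2, 8.19 and 11.6 FPKM. It fell to 59.1% of control, with a tight Bmi1 shRNA group and a wide control group (log2 fold change -0.66, standard error 0.12; limma, adjusted p = 0.00400), and after detrending its change was -0.41 (limma, adjusted p = 0.0385), a call that ended with the replicate block added (limma, adjusted p = 0.0528). CA12, a carbonic anhydrase of the cell surface, had 13.1, 10.8 and 10.6 FPKM, against 19.2, 16.7 and 19.1 FPKM (log2 fold change -0.63; limma, adjusted p = 0.00235). That call ended after detrending (-0.30; limma, adjusted p = 0.0777).

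NDRG1, a stress-induced protein, fell to 6.50 ± 0.230 FPKM in Bmi1 shRNA libraries, against 9.16 ± 0.427 FPKM in control libraries (SD, n = 3 each; log2 fold change -0.44; limma, adjusted p = 0.00147), and was not called after detrending (-0.12; limma, adjusted p = 0.0652). CA9, the carbonic anhydrase most often used as a marker of HIF1 activity, had 3.41, 4.602 and 3.88 FPKM, against 4.23, 4.97 and 5.06 FPKM. Its groups overlapped and it did not pass (log2 fold change -0.22; limma, adjusted p = 0.127), except without Bmi1 shRNA replicate 2 (limma, adjusted p = 0.0444). ADM, the vasodilator peptide adrenomedullin, had 2.23 ± 0.0876 FPKM against 2.29 ± 0.273 FPKM and did not pass (limma, adjusted p = 0.793).

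A further 3 targets rose. P4HA1, the catalytic subunit of collagen prolyl 4-hydroxylase, had 5.96, 5.62 and 5.70 FPKM in Bmi1 shRNA libraries, against 3.50, 3.14 and 3.36 FPKM in control libraries. It rose 1.73-fold without overlap (log2 fold change 0.64, standard error 0.060; limma, adjusted p = 0.000482), and by 0.28 after detrending. Its paralog P4HA2 fell, to 4.32 ± 0.155 FPKM against 5.14 ± 0.268 FPKM (SD, n = 3 each; log2 fold change -0.21; limma, adjusted p = 0.0268), and was not called without Bmi1 shRNA replicate 1 or 2 or control replicate 2 or 3 (limma, adjusted p from 0.0509 to 0.0909) or after detrending (-0.022; limma, adjusted p = 0.765). ANKRD37, an ankyrin repeat protein induced by hypoxia, had 2.31, 2.44 and 2.93 FPKM, against 1.40, 1.28 and 1.65 FPKM (log2 fold change 0.54; limma, adjusted p = 0.00344). BNIP3L (NIX), a receptor of mitophagy, had 3.60, 3.26 and 3.81 FPKM, against 2.07, 1.86 and 2.25 FPKM. It rose 1.72-fold (log2 fold change 0.57; limma, adjusted p = 0.00152), but was not called after detrending (0.16; limma, adjusted p = 0.161). Its GC content is 38.9%.

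Another 3 targets were below the filter in these cells. BNIP3, the paralog of BNIP3L and a widely used HIF target, lay between 0.0169 and 0.0795 FPKM over all 6 libraries, far below BNIP3L. It has 39 processed pseudogenes by name in GENCODE, 6 of them with a row, so its reads may be shared between copies, which was not tested. PDK1, a kinase of pyruvate dehydrogenase, had 0.451 ± 0.0364 FPKM in Bmi1 shRNA libraries and 0.479 ± 0.0470 FPKM in control libraries (SD, n = 3 each). Its paralog PDK3 had 0.735 ± 0.0660 FPKM and 0.598 ± 0.0528 FPKM (SD, n = 3 each). At such levels log2(FPKM + 1) shows little of any change.

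**Figure D4:**
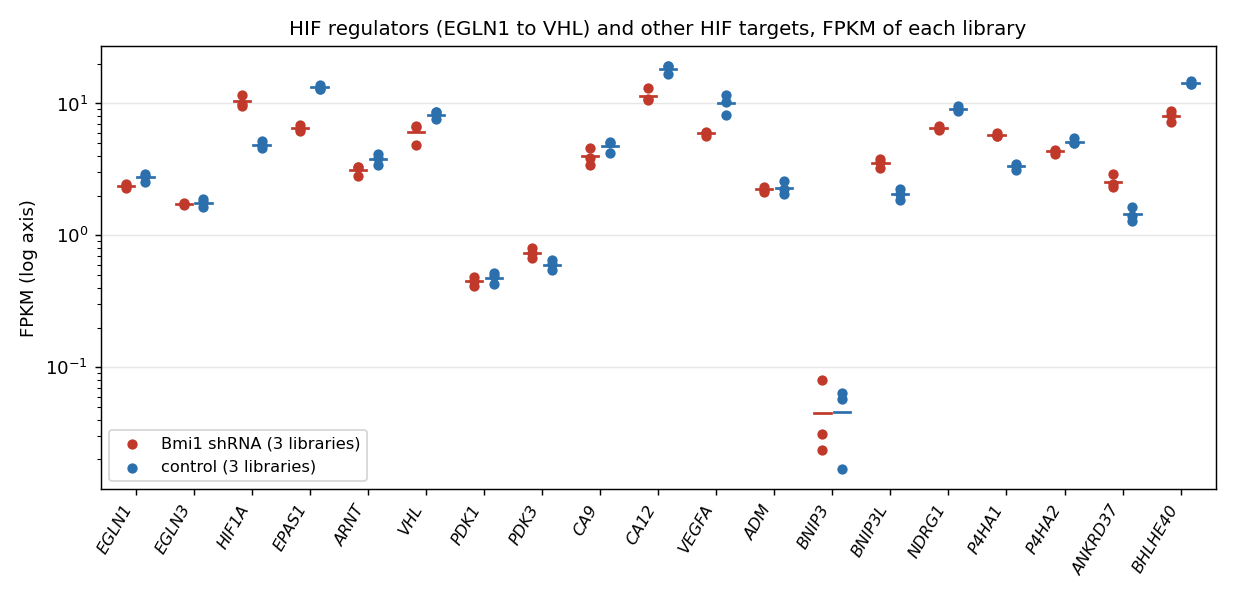
FPKM of each library (vertical log axis) is plotted for the 6 HIF regulators and the 13 other HIF targets, with Bmi1 shRNA libraries in red and control libraries in blue; short lines are group means. HIF1A, P4HA1, BNIP3L and ANKRD37 stand higher and EPAS1, VEGFA, CA12 and BHLHE40 lower with Bmi1 shRNA, and BNIP3 lies near the floor in all.

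Neighbouring pathways were read from lists of further genes, to be set against 28.5% lower and 28.6% higher over all tested rows (20.5% and 19.1% after detrending). Like the members, these lists were chosen with earlier results of these data known. Of 25 tested further HIF targets, leaving out HK2, a member that the list also holds, 11 fell (44%) and 5 rose (20%), and 8 and 3 after detrending. Among them DDIT4, an inhibitor of mTORC1, had 136 ± 4.17 FPKM with Bmi1 shRNA and 239 ± 11.997 FPKM in control (SD, n = 3 each), and TFRC, the transferrin receptor, rose by 1.71 on the log2 scale. Of 18 further HIF regulators, 7 rose (38.9%) and 6 fell (33.3%), and 6 and 4 after detrending. HSP90AA1, a chaperone of HIF alpha, rose (40.3 ± 2.06 FPKM against 16.2 ± 0.871 FPKM), as did ELOB (elongin B), which joins VHL in the ligase (311 ± 9.68 FPKM against 195 ± 11.02 FPKM). EP300, a coactivator of HIF, fell (2.27 ± 0.246 FPKM against 4.44 ± 0.223 FPKM). Of 12 other tested glycolytic and transport isoforms, 3 rose (25%) and 1, HKDC1, fell (8.33%), and 2 and 1 after detrending. SLC2A2, the glucose transporter of liver and islets, rose as given above, and BPGM, which makes 2,3-bisphosphoglycerate, rose by 0.41 on the log2 scale but was not called after detrending. All values of this paragraph given with an SD have n = 3 in each group, and the genes said to rise or fall had limma adjusted p of at most 0.0126.

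In the lists around pyruvate and sugar storage, calls went both ways. A list for pyruvate in the mitochondrion held its carrier, pyruvate dehydrogenase with its regulators, and pyruvate carboxylase (PC). Of its 11 tested genes, 4 rose (36.4%) and 1, PC, fell (9.09%), and after detrending 2 were higher and 1 lower. DLD, the shared E3 subunit of pyruvate dehydrogenase, rose (10.8 ± 0.792 FPKM in Bmi1 shRNA libraries against 5.10 ± 0.266 FPKM in control libraries), and MPC1, of the pyruvate carrier, rose by 0.32 on the log2 scale but was called lower after detrending (-0.21; limma, adjusted p = 0.0338). Of 11 tested glycogen genes, 5 fell (45.5%) and 3 rose (27.3%), and 4 and 2 after detrending. PYGB, the brain form of glycogen phosphorylase, fell (280 ± 16.1 FPKM against 592 ± 30.7 FPKM), while UGP2, which makes UDP-glucose, rose by 0.81 on the log2 scale. Of 9 tested pentose phosphate genes, 4 fell (44.4%) and 2 rose (22.2%), and 2 and 0 after detrending, with H6PD, PGD and TKT at log2 fold changes of -0.61, -0.30 and -0.31; H6PD and TKT were not called after detrending, nor was PC. Of 4 tested gluconeogenic genes, 1 fell and 1 rose, and 2 were lower and 0 higher after detrending. PCK2, the mitochondrial PEP carboxykinase, fell (18.3 ± 1.28 FPKM against 32.1 ± 2.62 FPKM), and FBP1 rose slightly (log2 fold change 0.27; limma, adjusted p = 0.0468), a call lost after detrending and whenever 1 library was left out, Bmi1 shRNA replicate 3 excepted (limma, adjusted p from 0.0773 to 0.121). All values with an SD have n = 3 in each group, and limma adjusted p was at most 0.0129 for the other genes named as changed here.

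Fold changes followed transcript GC content across the whole table, and the members lay on that trend in part. Over all tested rows the median log2 fold change was 0.48 in the lowest of 10 groups by GC content and -0.24 in the 8th. The median GC content was 52.8% over tested members and 50.4% over all tested rows. Of 8 tested members with GC content under 45%, 4 rose and 0 fell. From 45 to 55% 1 of 15 rose and 12 fell, and at 55% or more 1 of 16 rose and 6 fell. After detrending, 11 members were lower and 7 higher of 39, 28.2% and 17.9%, where the background was 20.5% lower and 19.1% higher, 39.7% in all. Of the 18 genes that fell, 11 were still called lower and 7 were not called. Of the 6 that rose, 5 were still called. ENO2 and PFKFB4, which had not passed, were then called higher. By role, 8 glycolytic genes were then lower and 4 higher, 2 other HIF targets lower and 2 higher, and 1 HIF regulator lower and 1 higher. How far the GC trend is technical was not tested.

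**Figure D5:**
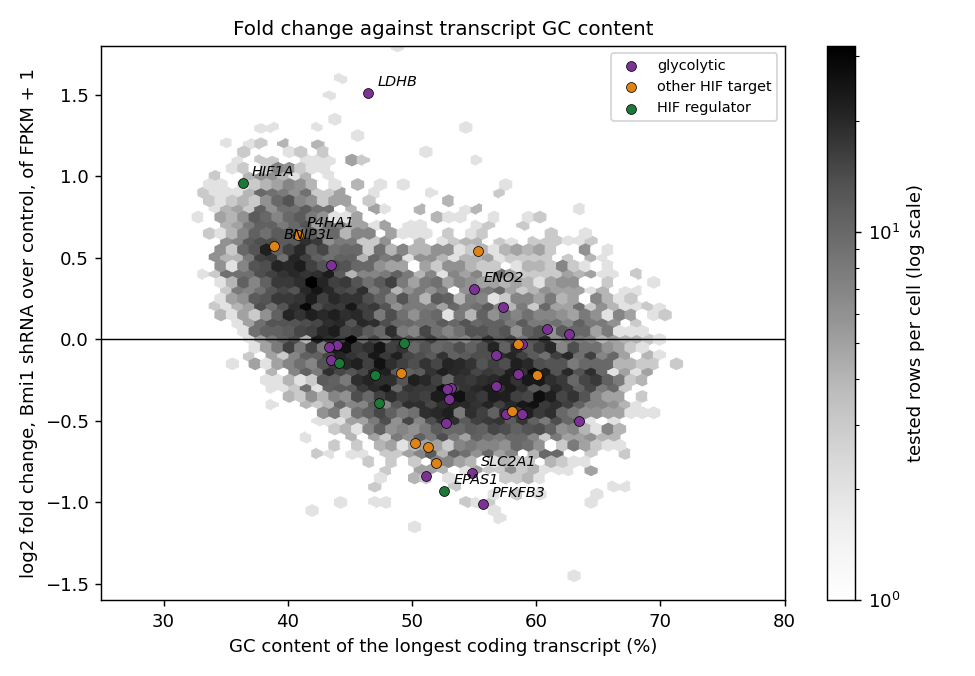
The log2 fold change (Bmi1 shRNA over control, of FPKM + 1; vertical axis) is plotted against the GC content of the longest coding transcript (%) for all tested rows (grey cells) and the 39 tested members (coloured by role). Low GC content goes with higher values, and HIF1A, P4HA1 and BNIP3L lie within that cloud. LDHB stands highest of the members. PFKFB3, EPAS1 and SLC2A1 are among the lowest members, though other rows of similar GC content reach as low.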

How the data were processed

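Poly(A) RNA from 6 libraries (3 Bmi1 shRNA, 3 control) of QBC-939 cells was measured by paired-end RNA-seq. The authors deposited FPKM values in 1 table of 27238 rows; Bowtie 0.12.2, HISAT2 2.0 and StringTie 1.3.0 are named in the submitters' processing notes, with no role or order. Those notes name mm8, a mouse build, for human cells, so the build used is not settled here and no coordinate was taken from the table. The extraction protocol in the labels also speaks of adipose material. Columns were matched to samples by name. FPKM summed to 352800 to 360371 in Bmi1 shRNA libraries and 332910 to 341268 in control libraries. Depth is unknown: the ratios of values under 0.1 FPKM did not resolve to whole reads, so no count test was run.

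Rows averaging 1 FPKM or more were tested with limma 3.58.1 (R 4.3.3) on log2(FPKM + 1), with a variance trend and Benjamini-Hochberg adjustment over 11016 rows; such fold changes understate those of low genes. The trend with GC content and length (longest coding transcript, GENCODE 29) was removed with natural splines of 5 degrees of freedom; 92.8% of tested rows had a value. Isoform shares were compared by exact permutation (Python 3.11.15, scipy 1.17.1). Fits were tested on simulated data with 200 changed genes. The genes named are every member, BMI1 and, in each further list, up to 3 called genes with the smallest p; a gene this rule names is not reported here. Members and lists were chosen with earlier results of these data known. Promoter windows are from RefSeq (GRCh38.p14), which held none for VHL, PFKFB2, SLC16A1, SLC2A3, BNIP3L, VEGFA and NDRG1 here. Alternatives were another pseudocount, other filters and scalings, no variance trend, a replicate block, the removed trend, and each library left out.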

Additional observations from a re-analysis of the deposited data

How the results depend on the processing

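Of 24 called members, 15 kept their call in all 16 alternatives in which they were tested. Against 6295 rows called over the whole table, a filter at a mean of 5 FPKM gave 3478 (of fewer rows tested), detrending for GC content and length 4056, and detrending with the replicate block 3141. Higher glycolytic members numbered 4 after detrending, with or without the block, against 2, and 2 to 4 as each library was left out. Other HIF targets called higher numbered 0 at a mean of 5 FPKM, where fewer are tested, and those called lower 2 after detrending and 1 with the block added, against 5. HIF regulators called lower numbered 1 with no filter, 4 with libraries scaled to one total, and 1 after detrending with or without the block, against 2, and 1 to 2 as each library was left out. The cause of these shifts was not tested.

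Signs of small changes turned (log2 fold changes). After detrending, with or without the block, GPI came to 0.0211, PFKFB4 to 0.212, GAPDH to 0.0736, PKM to 0.0469, ADM to 0.0814 and EGLN3 to 0.143. Upper quartile scaling gave 0.0143 for GAPDH, 0.0109 for LDHA, 0.00427 for ADM and 0.00826 for EGLN3. Scaling to one total gave -0.022 for ALDOA and -0.0498 for SLC16A3, and quantile normalization -0.115 for ALDOA. One-total scaling moved the median of all rows to -0.102. Leaving out each library gave -0.252 to 0.33 for ALDOA, -0.0957 to 0.0126 for LDHA, -0.103 to 0.131 for SLC16A3, -0.0794 to 0.0379 for ADM and -0.0547 to 0.0114 for EGLN3.

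Same-numbered libraries did not visibly deviate together (correlations 0.004, -0.079 and -0.023), where pairs of different number ran from -0.076 to 0.1. With 3 libraries a group these values cannot exclude a weak pairing. With the replicate block 5658 rows were called; among members TPI1 gained a call (limma, adjusted p = 0.0469) and P4HA2 lost one (0.0579). Depth is unknown, so no limit of detection can be given for BNIP3, SLC2A3, PDK1 and PDK3. All libraries are of 1 cell line and 3 transfections a group.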
